A study of Saccharomyces cerevisiae S288C with 12 samples.

Results

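Cse4, the histone H3 variant of the yeast centromere, was mapped around 10 phosphate response genes of Saccharomyces cerevisiae: PHO4, PHO2, PHO80, PHO85, PHO81, PHO5, PHO8, PHO84, PHO89 and SPL2, of 6002 nuclear protein-coding genes in the R64 annotation. The genes were taken by name, and PHO4 was selected on the peak fold it had in these same libraries. The values below are therefore a description, and no test was made on them. A peak was assigned to a gene when it overlapped the gene body or 1 kb on either side, in each library by itself.

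The PHO pathway adjusts phosphate uptake and recovery to supply. When phosphate is plentiful, the cyclin-dependent kinase Pho85 with its cyclin Pho80 phosphorylates the transcription factor Pho4, which then leaves the nucleus. When phosphate is scarce, Pho81 inhibits the kinase, and Pho4 together with Pho2 activates phosphatase and transporter genes. PHO5 is a long-used model of how promoter nucleosomes are removed on activation.

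Each strain lacked PSH1, which encodes a ubiquitin ligase that targets Cse4, and made Cse4 with a 6His-3HA tag from the GAL promoter. The tagged Cse4 was K215/216A (both lysines changed to alanine), K215/216R (both changed to arginine) or wild type (WT). Cultures in 2% raffinose at 30 degrees C received 2% galactose for 2 hours, and chromatin sonicated to about 100 bp was taken down with anti-HA beads. Each strain had 2 immunoprecipitated libraries, used here, and 2 input libraries, not used here. The labels do not say whether replicates were separate cultures, so the spread between them may be technical, and the excess of Cse4 made from the GAL promoter is common to all 3 strains.

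The deposited lists held 4575 and 4725 peaks for K215/216A, 3604 and 4822 for K215/216R, and 3123 and 4720 for WT. The fold of a peak is the authors' ratio of the summit pileup to the background around it, within 1 library. The genome background recovered from each list, a measure of depth, was 146 and 148 fragments in K215/216A, 86.2 and 156 in K215/216R, and 59.5 and 126 in WT. K215/216R replicate 1 and WT replicate 1 were thus the shallowest libraries, and they had the highest median folds of all peaks, 1.57 and 1.66, against 1.43 to 1.48 in the other libraries. Several comparisons are therefore also given as folds over the library median, and the part that depth plays in the differences was not tested. No peak overlapped the PSH1 gene in any of the 6 libraries, while CSE4 had 1 peak in each, and the peak lists cannot show which lysine change a strain carried.

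Peaks were common around the members and also around genes in general. All 10 members had a peak in both K215/216A libraries, where 75.1% of all genes did. In K215/216R 8 of the 10 did, against 68.8% of all genes, and PHO2 and PHO5 were the exceptions. In WT 9 of the 10 did, against 62.1%, with PHO2 missing. The 8 members with a peak in all 6 libraries compare with 54.3% of all genes. The window of a member was 3542 bp long at the median, against 3200 bp for all genes.

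Summits within 500 bp upstream of the gene start, called promoter summits here, were less common. They were present in both libraries for 5 members in K215/216A (PHO4, PHO5, PHO80, PHO84 and PHO89; 23.8% of all genes), for 3 in K215/216R (PHO4, PHO80 and PHO84; 17.6%) and for 3 in WT (PHO4, PHO84 and PHO89; 15.0%). PHO4 and PHO84 had one in all 6 libraries, as did 9.50% of all genes.

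Summits no more than 100 bp apart were joined into sites, which gave 35 sites around the 10 members. Of these, 13 lay inside a member, 7 inside another gene and 15 between genes. A summit was present in all 6 libraries at 6 sites and in 1 library at 9. At 15 of the 26 sites seen in 2 or more libraries, the summits lay within 10 bp of each other across the libraries that had one. Sites around other genes were not counted, so the site counts here and below have no share of all genes beside them.

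**Figure D1:**
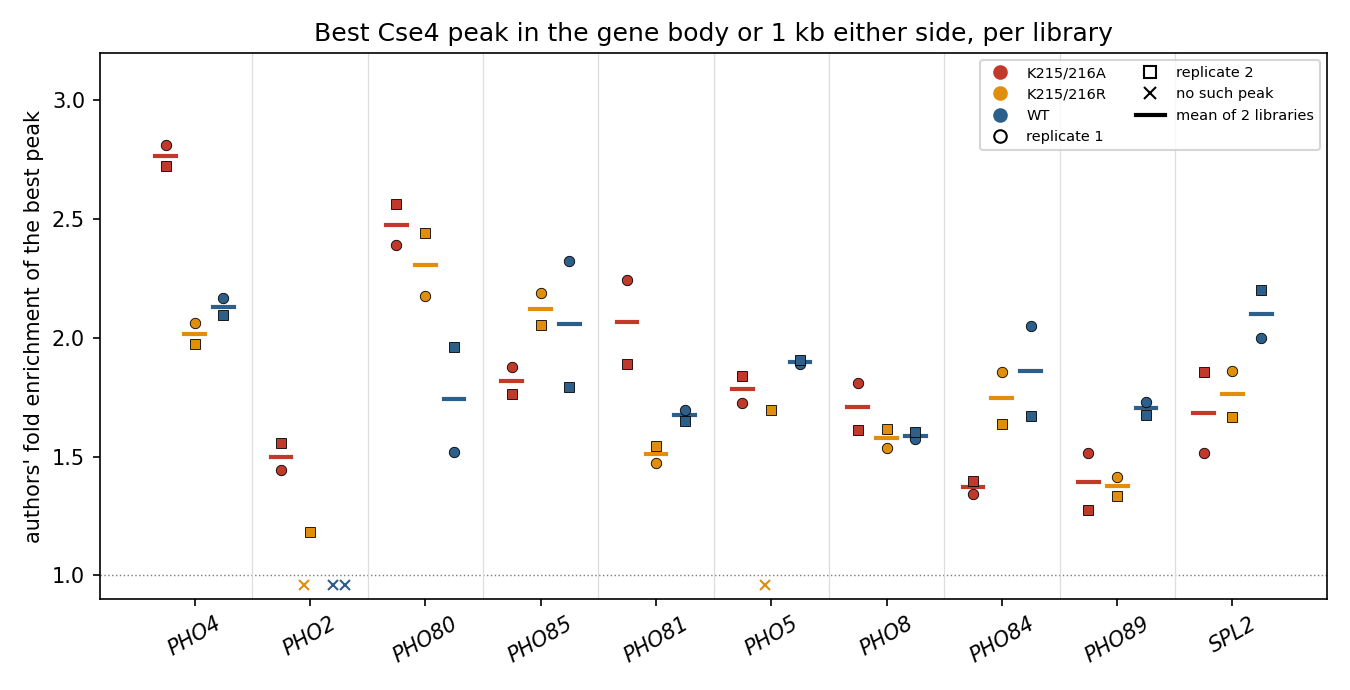
The fold of the best peak (y axis, the authors' ratio) in the gene body or 1 kb either side is plotted for each member (x axis), with K215/216A, K215/216R and WT side by side. Circles and squares are replicates 1 and 2, bars are means of 2 libraries and crosses mark libraries with no peak. PHO4 in K215/216A stands at 2.81 and 2.72, above its K215/216R and WT libraries, while PHO84 in K215/216A stands at 1.34 and 1.40, below them.

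PHO4 (YFR034C, chromosome VI, bases 225020 to 225958, minus strand) encodes the basic helix-loop-helix activator of the pathway. Its promoter peak had a fold of 2.81 and 2.72 in the K215/216A libraries, 2.06 and 1.97 in the K215/216R libraries and 2.17 and 2.09 in the WT libraries. Both K215/216A libraries lay above the other 4, and both K215/216R libraries lay just below both WT libraries. Mean folds were 2.77 ± 0.063 in K215/216A, 2.02 ± 0.065 in K215/216R and 2.13 ± 0.052 in WT (SD, n = 2 each). The difference was 0.637 for K215/216A minus WT, 0.749 for K215/216A minus K215/216R, and −0.112 for K215/216R minus WT, which was −0.0666 without K215/216R replicate 2. With 2 libraries against 2, an exact permutation test cannot give a p below 0.33.

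Within its own list the PHO4 peak ranked 18 and 20 by fold in the K215/216A libraries, 334 and 360 in the K215/216R libraries, and 260 and 201 in the WT libraries. The authors' −log10 q was 71.9 and 64.3 in K215/216A, 19.2 and 28.5 in K215/216R, and 13.8 and 26.3 in WT. PHO4 was thus among the strongest peaks of both K215/216A lists and well inside, but not at the top of, the other 4. Of the 570 genes with a promoter summit in all 6 libraries, 7.02% had a higher fold in both K215/216A libraries than in the other 4, as PHO4 had, and 22.3% a lower one. With each fold divided by its library median, these shares were 12.8% and 11.6%, and PHO4 was again on the higher side.

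The local background at PHO4 also differed between strains. Relative to the genome background it was 1.04 and 1.0 in K215/216A, 1.23 and 1.16 in K215/216R, and 1.09 and 1.08 in WT, so the K215/216A libraries had the lowest divisor. The pileup at the summit divided by the genome background was 2.82 ± 0.14 in K215/216A, 2.41 ± 0.16 in K215/216R and 2.32 ± 0.068 in WT (SD, n = 2 each). On that scale both K215/216A libraries were again above the other 4, as for 6.32% of the 570 genes (22.3% were below), K215/216A exceeded K215/216R by 0.413, and the order of K215/216R and WT turned round, with a difference of 0.0927.

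The PHO4 summit fell on the same base, 226203, in all 6 libraries, which 11.6% of the 570 genes shared, while 40.9% had all 6 summits within 10 bp. That base lies 245 bp upstream of the PHO4 start, inside the open reading frame YFR035C and 57 bp before the start of YFR035W-A on the opposite strand. The same peak is therefore also the promoter peak of YFR035W-A in all 6 libraries. The peak was 1012 and 1016 bp wide in K215/216A, 359 and 370 bp in K215/216R, and 395 and 447 bp in WT. It was wider in both K215/216A libraries than in the other 4, as for 16.1% of the 570 genes. In the authors' deposited table of joined peaks, the region ran over bases 225553 to 226604 in K215/216A, 226195 to 226564 in K215/216R and 226118 to 226564 in WT.

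The added width in K215/216A reached into the PHO4 coding sequence. At a site 230 bp inside PHO4, base 225728, the K215/216R libraries had separate peaks with a fold of 1.38 and 1.68, and the WT libraries had separate peaks of 1.80 and 1.65. In K215/216A the promoter peak covered that site and no summit was called there, so the authors' fold gives no K215/216A value for it.

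A pair of further sites lay past the PHO4 end, near QCR6, which encodes a subunit of the cytochrome bc1 complex. The summit on base 224811, 42 bp before the QCR6 start, had a fold of 2.05 and 2.16 in K215/216A, 1.56 and 1.96 in K215/216R, and 1.78 and 1.42 in WT. Both K215/216A libraries were above the other 4, which overlapped with each other, and all 6 summits were on the same base. The site inside QCR6, base 224404, had a fold of 2.04 and 1.79 in K215/216A and of 1.66 and 1.72 in K215/216R, and neither WT library had a peak over it. A weaker site 936 bp upstream of PHO4 was called in 1 K215/216A library (1.52) and in 1 K215/216R library (1.75).

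**Figure D2:**
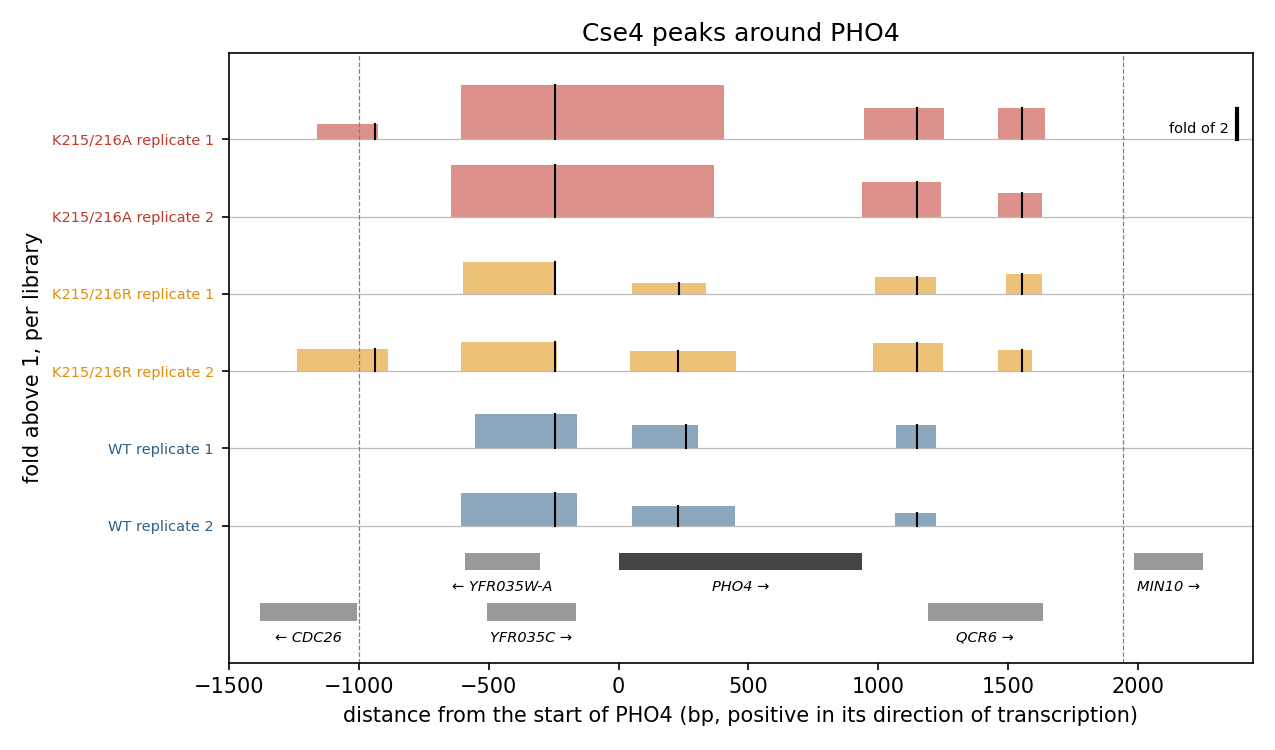
Peaks of each library around PHO4 are drawn as boxes against distance from the PHO4 start (x axis, bp), with height giving fold above 1, a black line at each summit and dashed lines at the limits of the 1 kb flanks. The promoter summit stands 245 bp upstream in all 6 libraries, and the 1012 and 1016 bp boxes of K215/216A extend over the site 230 bp inside PHO4 that K215/216R and WT show as a separate peak.

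PHO2 (YDL106C, chromosome IV, bases 270222 to 271901, minus strand), the homeodomain factor that works with Pho4, had a peak in the fewest libraries of the 10 members. Its best peak had a fold of 1.44 and 1.56 in the K215/216A libraries, K215/216R replicate 2 had 1.18, and K215/216R replicate 1 and both WT libraries had none. All 3 summits, between 498 and 704 bp upstream of PHO2, lay inside the neighbouring gene NSE4. No peak reached the PHO2 coding sequence in any library.

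PHO80 (YOL001W, chromosome XV, bases 325249 to 326130, plus strand), the cyclin, had its best peaks downstream of the gene. At base 326290, 160 bp past the PHO80 end and 542 bp before the start of the exosome nuclease gene RRP6, the fold was 2.39 and 2.56 in K215/216A, 2.18 and 2.44 in K215/216R, and 1.96 in WT replicate 2. WT replicate 1 had no peak there. These peaks ranked 50 and 38 in the K215/216A lists, 240 and 66 in the K215/216R lists and 362 in that WT list, so after PHO4 this was the member with the highest folds in K215/216A.

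A second site, with a median position 29 bp inside RRP6, was called in all 6 libraries. Its summits were spread over 87 bp, and the WT replicate 1 summit lay just before the RRP6 start. The fold at this site was 2.18 and 2.41 in K215/216A, 2.00 and 2.03 in K215/216R, and 1.52 and 1.38 in WT. The groups did not overlap at this site: K215/216A was highest, with a mean of 2.30 ± 0.16, K215/216R followed with 2.01 ± 0.021, and WT was lowest with 1.45 ± 0.098 (SD, n = 2 each).

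The PHO80 promoter, shared with the divergent zinc homeostasis gene IZH2, showed another order. The summit 239 bp upstream of PHO80 had a fold of 1.69 and 1.47 in K215/216A, 1.78 and 1.89 in K215/216R, and 1.75 in WT replicate 2, with no peak in WT replicate 1. Both K215/216A libraries were thus below the other 3 peaks by fold, but over the library median, at 1.18 and 1.02, they overlapped K215/216R, at 1.13 and 1.29. A site inside IZH2 had a fold of 1.63 and 1.92 in K215/216A and 1.49 in K215/216R replicate 1, with no peak in the other 3 libraries. In the authors' deposited table, the joined K215/216A region at PHO80 was 1661 bp long and ran from the promoter past the gene end.

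Taking the best peak in the window, PHO80 averaged 2.48 ± 0.12 in K215/216A, 2.31 ± 0.19 in K215/216R and 1.74 ± 0.31 in WT (SD, n = 2 each). The difference was 0.736 for K215/216A minus WT and 0.566 for K215/216R minus WT. WT replicate 1, the shallowest library, had the lowest value, 1.52 at the RRP6 site, and without it the K215/216R difference was 0.346.

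PHO85 (YPL031C, chromosome XVI, bases 492018 to 493037, minus strand), the kinase, had a peak within its coding sequence in every library. The summit 788 bp inside the gene had a fold of 1.66 and 1.76 in K215/216A, 2.19 and 2.06 in K215/216R, and 2.33 and 1.79 in WT. Both K215/216A libraries lay below the other 4 by fold, but over the library median K215/216A replicate 2, at 1.22, was just above WT replicate 2, at 1.21. Mean folds there were 1.71 ± 0.073 in K215/216A, 2.12 ± 0.094 in K215/216R and 2.06 ± 0.38 in WT (SD, n = 2 each).

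A site 651 bp past the PHO85 end, before SVL3, was called in both K215/216A libraries, with a fold of 1.88 and 1.76, and no K215/216R or WT library had a peak there. It was the only one of the 35 sites with a summit in both K215/216A libraries and none in K215/216R, against 2 the other way. Of those 2, the site inside PHO4 was covered by a peak in both K215/216A libraries, and the site inside PHO84 was not. The PHO85 site was covered in no K215/216R library. Because the site past the end was the best PHO85 peak in K215/216A, the window values set different sites side by side. They were 1.82 ± 0.081 in K215/216A, 2.12 ± 0.094 in K215/216R and 2.06 ± 0.38 in WT. Their difference for K215/216A minus WT was −0.239, and it was 0.0279 without WT replicate 1 and −0.505 without WT replicate 2.

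Around the PHO85 start the folds were low on a high local background. The site 164 bp inside the gene had a fold of 1.2 and 1.34 in K215/216A, 1.19 and 1.28 in K215/216R and 1.71 in WT replicate 1, and the summit of WT replicate 2 lay 40 bp upstream of the gene with 1.65. The local background there was 2.67 and 2.36 times the genome background in K215/216A, 2.45 and 2.88 times in K215/216R, and 1.90 and 1.81 times in WT. The pileup itself was 3.18 and 3.15 times the genome background in K215/216A, 2.90 and 3.66 times in K215/216R, and 3.22 and 2.97 times in WT, with overlapping groups.

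**Figure D3:**
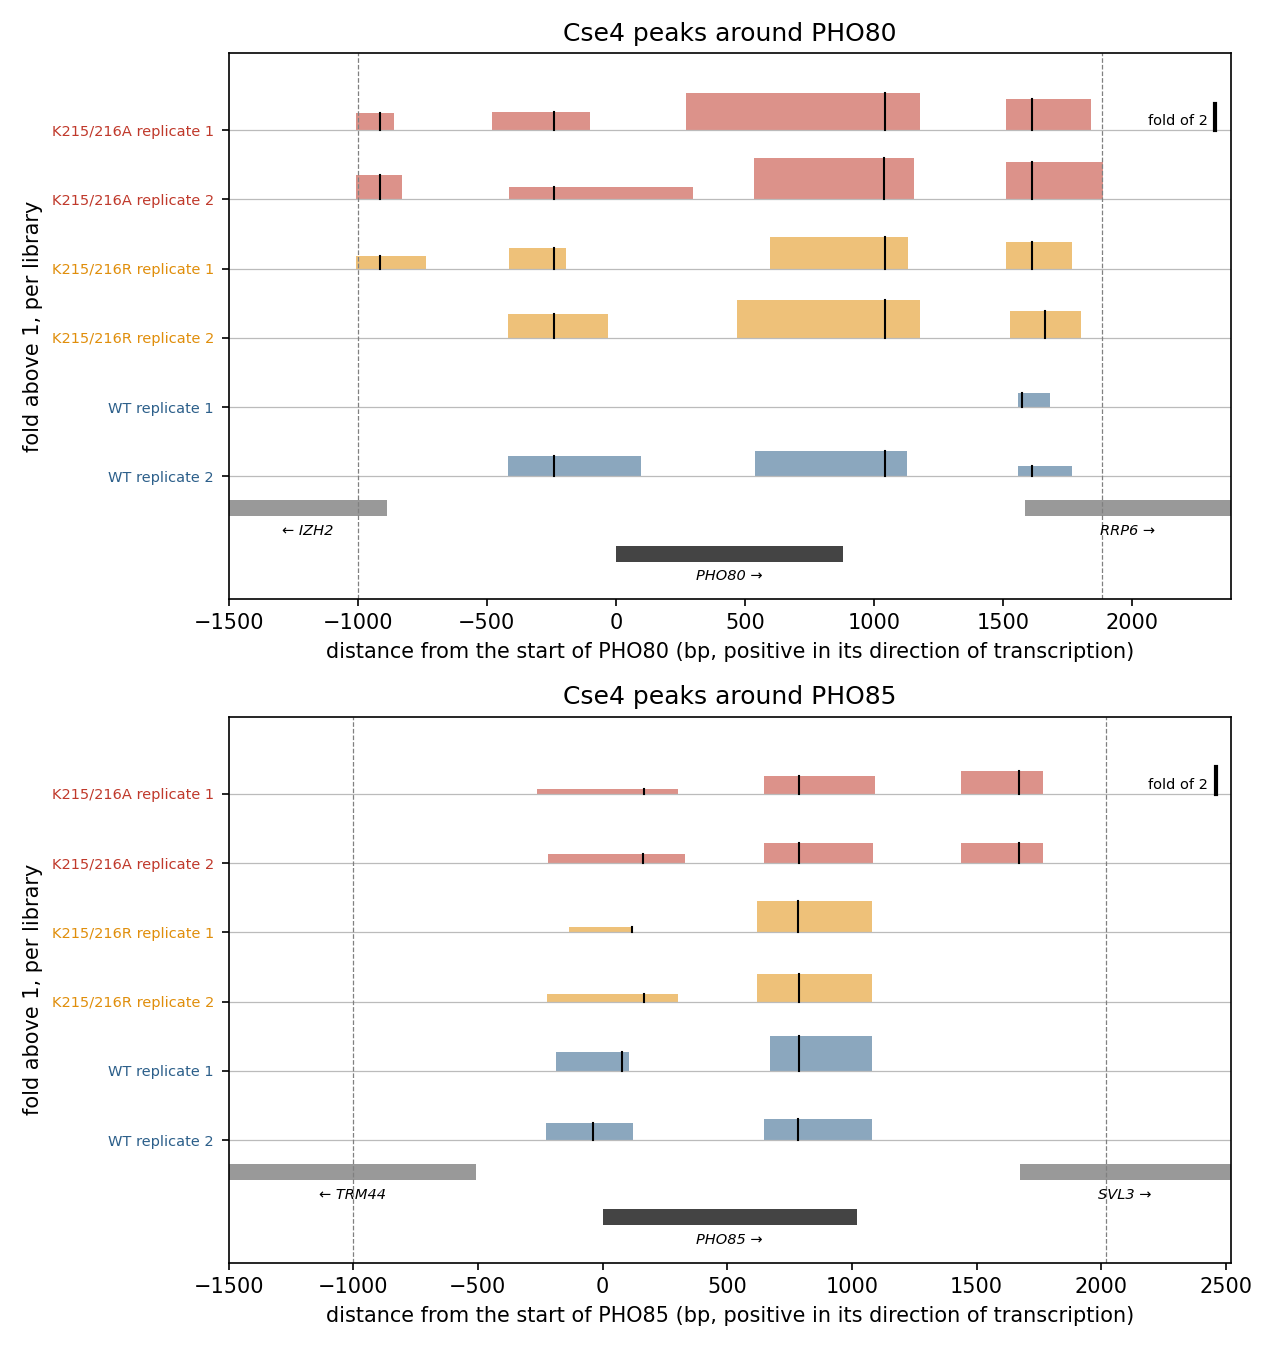
Peaks of each library around PHO80 (upper panel) and PHO85 (lower panel) are drawn as boxes against distance from the gene start (x axis, bp), with height giving fold above 1 and a black line at each summit. The site 160 bp past the PHO80 end reaches 2.39 and 2.56 in K215/216A, and the site 651 bp past the PHO85 end appears in the 2 K215/216A libraries alone.

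PHO81 (YGR233C, chromosome VII, bases 954674 to 958210, minus strand), the inhibitor of the kinase, had 1 peak per library, upstream of the gene and between it and the divergent flavohemoglobin gene YHB1. Its fold was 2.24 and 1.89 in K215/216A, 1.47 and 1.55 in K215/216R, and 1.70 and 1.65 in WT. By fold K215/216A was highest, WT came next and K215/216R was lowest, without overlap, but over the library median K215/216R and WT overlapped. In 5 libraries the summit lay 523 or 524 bp upstream of PHO81, and in K215/216A replicate 1 it lay 351 bp upstream.

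Mean folds at PHO81 were 2.07 ± 0.25 in K215/216A, 1.51 ± 0.050 in K215/216R and 1.67 ± 0.035 in WT (SD, n = 2 each). The K215/216A minus WT difference was 0.392, and 0.216 without K215/216A replicate 1. The local background had the opposite strain order to the fold here. Over the genome background it was 1.0 and 1.21 in K215/216A, 1.41 and 1.38 in K215/216R, and 1.35 and 1.33 in WT. The pileup over the genome background was 2.27 ± 0.032 in K215/216A, 2.1 ± 0.033 in K215/216R and 2.23 ± 0.070 in WT, which puts K215/216A and WT 0.0328 apart.

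PHO5 (YBR093C, chromosome II, bases 429548 to 430951, minus strand) encodes the secreted acid phosphatase that phosphate represses. Its peaks lay in the intergenic region shared with the divergent gene PBY1. The best fold was 1.73 and 1.84 in K215/216A, 1.70 in K215/216R replicate 2 and 1.89 and 1.91 in WT, and K215/216R replicate 1 had no peak in the window. Both K215/216A libraries were below both WT libraries, and the difference of the means was −0.115, or −0.0582 without K215/216A replicate 1. Over the library median the order of these means turned round, with a difference of 0.0247.

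Unlike at PHO4, the summits at PHO5 were not fixed. They lay 148 and 245 bp upstream in K215/216A, 154 and 570 bp upstream in K215/216R replicate 2, 240 and 628 bp upstream in WT replicate 1, and 571 bp upstream in WT replicate 2. The K215/216A peaks, 996 and 768 bp wide, covered both groups of positions, as did the 716 bp peak of WT replicate 2. PHO5 has close sequence copies in PHO3, PHO11 and PHO12, and the treatment of reads that map to several copies is not given in the sources used here, so the weak peaks inside PHO5 are uncertain. One lay 533 bp inside the gene with 1.24 in K215/216A replicate 1, the other lay 1238 bp inside with 1.51 in K215/216A replicate 2, and neither had a summit in another library.

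PHO8 (YDR481C, chromosome IV, bases 1418550 to 1420250, minus strand), the vacuolar alkaline phosphatase, had no promoter summit in any library. A summit 122 bp inside the gene had a fold of 1.81 and 1.61 in K215/216A and 1.62 in K215/216R replicate 2. In WT the summits inside PHO8 lay 615 and 488 bp from the start, with a fold of 1.57 and 1.60, and the peak of WT replicate 2 also covered the K215/216A position. A site inside the neighbouring gene DIG2 had a fold of 1.54 in K215/216R replicate 1 and 1.50 and 1.40 in WT, and no K215/216A library had a peak there.

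The best PHO8 fold averaged 1.71 ± 0.14 in K215/216A, 1.58 ± 0.058 in K215/216R and 1.59 ± 0.021 in WT (SD, n = 2 each). These means set different sites side by side. The best peak of K215/216R replicate 1 was the one at DIG2, and the best WT summits lay elsewhere in PHO8 than those of K215/216A. The K215/216A minus WT difference of 0.122 was 0.0225 without K215/216A replicate 1, and −0.0804 as pileup over the genome background. The order of the strains at PHO8 thus changed with the scale.

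PHO84 (YML123C, chromosome XIII, bases 24037 to 25800, minus strand) encodes the high-affinity phosphate transporter, and was the other member with a promoter summit in all 6 libraries. The fold there was 1.34 and 1.40 in K215/216A, 1.86 and 1.64 in K215/216R, and 2.05 and 1.67 in WT. Both K215/216A libraries lay below the other 4, while K215/216R and WT overlapped. Means were 1.37 ± 0.038 in K215/216A, 1.75 ± 0.16 in K215/216R and 1.86 ± 0.27 in WT (SD, n = 2 each).

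The PHO84 difference was −0.491 for K215/216A minus WT and −0.378 for K215/216A minus K215/216R. Without WT replicate 1 the first was −0.302, and over the library medians they were −0.231 and −0.202, with both K215/216A libraries still lowest. The pileup over the genome background was 1.59 ± 0.062 in K215/216A, 1.75 ± 0.16 in K215/216R and 1.98 ± 0.10 in WT. On that scale K215/216A replicate 2, at 1.63, was barely below K215/216R replicate 2, at 1.64. K215/216A, highest at PHO4, was thus lowest at the PHO84 promoter on each of these scales, a place it had by fold at 22.3% of the 570 genes. Its 6 summits were spread over 67 bp, between 122 and 189 bp upstream of the gene.

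Sites inside PHO84 were missing from K215/216A. The site 436 bp inside the gene had a fold of 1.29 and 1.28 in K215/216R and 1.72 and 1.55 in WT, and the site 1528 bp inside had 1.55 and 1.27 in WT. No K215/216A library had a peak over either site. The −log10 q at the site 1528 bp inside was low, at 3.07 and 1.74 in the WT libraries. It was also low at the site 436 bp inside in the K215/216R libraries, at 1.50 and 2.74. These PHO84 sites are 2 of the 3 sites that had a summit in both WT libraries and no covering peak in K215/216A. The third is the DIG2 site beside PHO8. The reverse, a summit in both K215/216A libraries and no covering peak in WT, also held at 3 sites.

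PHO89 (YBR296C, chromosome II, bases 796798 to 798522, minus strand) encodes the sodium-coupled phosphate transporter. Its promoter peak had a fold of 1.51 and 1.28 in K215/216A, 1.21 in K215/216R replicate 2, and 1.73 and 1.68 in WT. K215/216R replicate 1 had none, and both WT libraries were above the other 3 peaks. The promoter peaks averaged 1.39 ± 0.17 in K215/216A and 1.70 ± 0.037 in WT (SD, n = 2 each). The K215/216A minus WT difference of −0.309 was −0.190 without K215/216A replicate 2, and over the library median it was −0.119 with overlapping groups.

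A more distal PHO89 peak showed the effect of the 1 kb limit. Its summits lay 950 and 886 bp upstream in K215/216A and 950 bp upstream in both K215/216R libraries, inside the limit, with a fold of 1.38 and 1.17 in K215/216A and of 1.41 and 1.34 in K215/216R. The WT summits lay 1054 and 1053 bp upstream, just outside it, with a fold of 1.53 and 1.50, but those peaks overlapped the window. The distal peak was the best one in K215/216R, so the window difference of −0.328 for K215/216R minus WT compares a distal with a promoter peak. As pileup over the genome background that difference was 0.378.

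**Figure D4:**
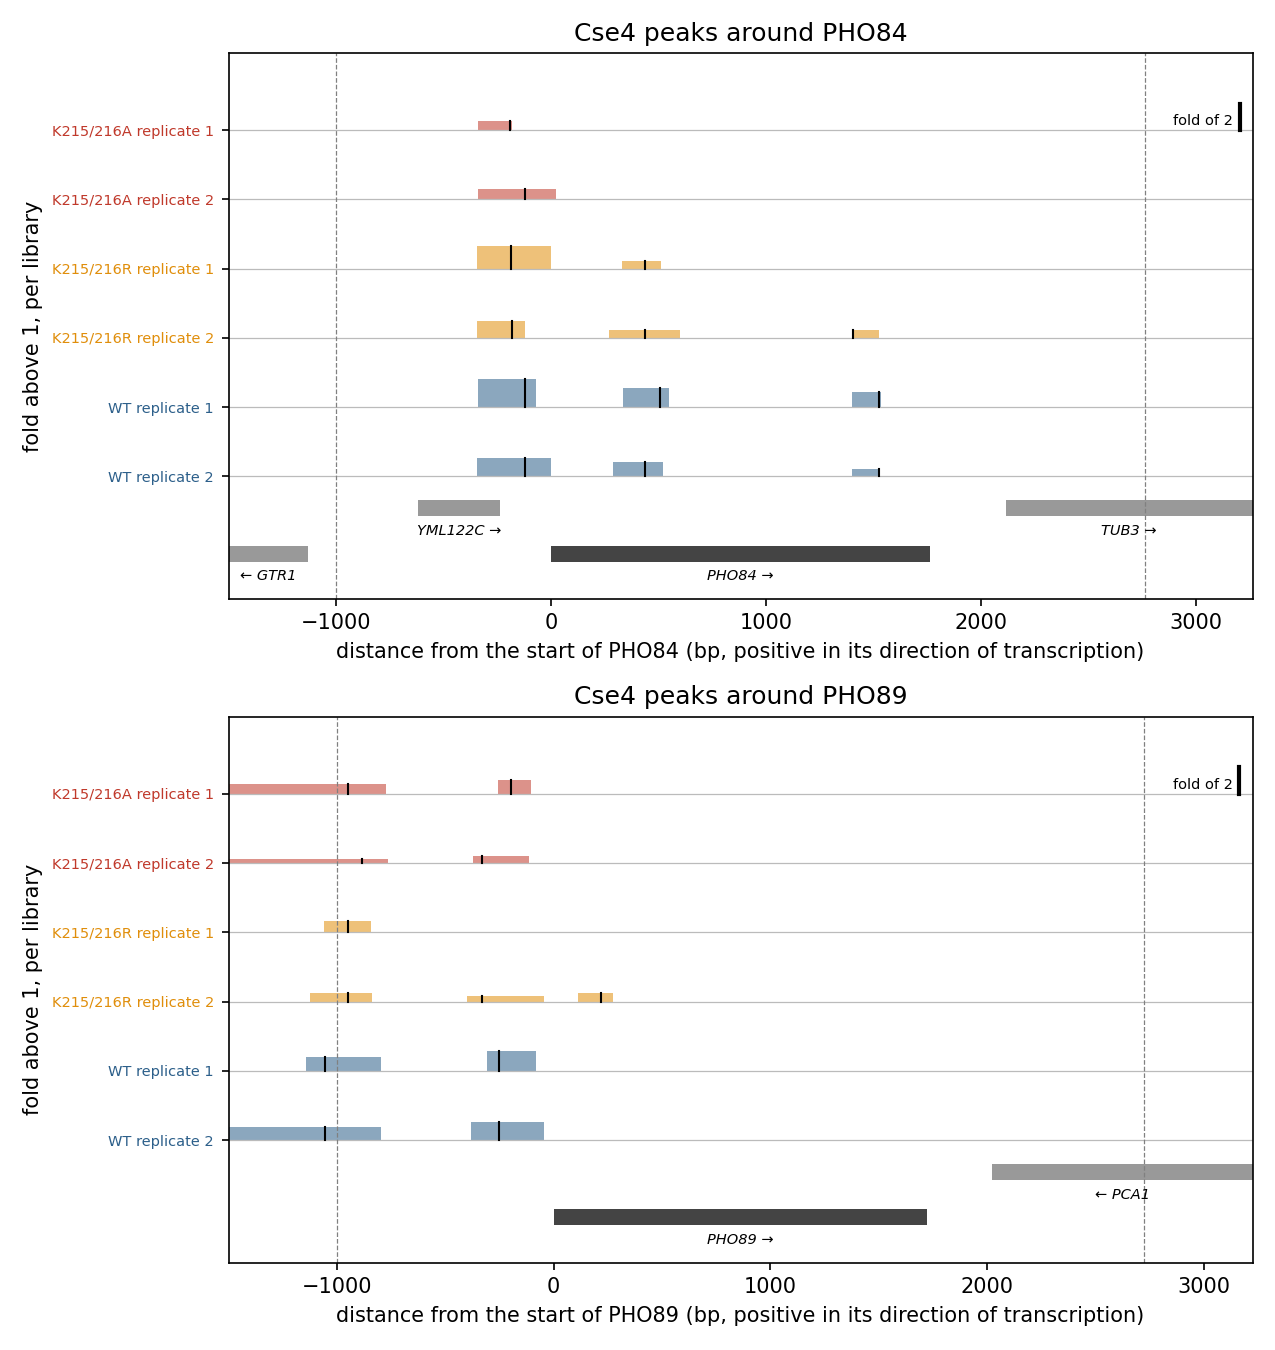
Peaks of each library around PHO84 (upper panel) and PHO89 (lower panel) are drawn as boxes against distance from the gene start (x axis, bp), with height giving fold above 1 and a black line at each summit. The PHO84 promoter boxes are lowest in K215/216A, at 1.34 and 1.40, and the boxes inside PHO84 are seen in K215/216R and WT but not in K215/216A.

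SPL2 (YHR136C, chromosome VIII, bases 374654 to 375100, minus strand) encodes a small protein that restrains low-affinity phosphate uptake. A peak between 660 and 909 bp wide lay over the start of the gene in all 6 libraries, with summits from 20 bp upstream to 33 bp inside. Its fold was 1.51 and 1.86 in K215/216A, 1.86 and 1.67 in K215/216R, and 2.00 and 2.20 in WT. WT was above both mutants, which overlapped each other.

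Mean folds at SPL2 were 1.69 ± 0.24 in K215/216A, 1.76 ± 0.14 in K215/216R and 2.1 ± 0.14 in WT (SD, n = 2 each). The difference was −0.417 for K215/216A minus WT, or −0.245 without K215/216A replicate 1, and −0.339 for K215/216R minus WT. Over the library median these were −0.177, with overlapping groups, and −0.184. The pileup over the genome background was 2.51 ± 0.048 in K215/216A, 2.42 ± 0.027 in K215/216R and 2.56 ± 0.16 in WT, so on that scale K215/216A and WT differed by −0.0542.

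Set against all genes, the members did not all lie on one side. Of the 9 members with a peak in all K215/216A and WT libraries, 4 (PHO4, PHO80, PHO81 and PHO8) had a best fold higher in both K215/216A than in both WT libraries, where 11.6% of 3457 genes did. The 4 lower ones were PHO5, PHO84, PHO89 and SPL2, where 38.2% of genes were lower. The median K215/216A minus WT difference was −0.115 over the 9 members and −0.120 over the 3457 genes. Over the library median, the same 4 were higher (24.6% of genes) and PHO84 alone was lower (20.3%). As pileup over the genome background, PHO4 and PHO80 were higher (12.6%) and PHO5, PHO84, PHO85 and PHO89 were lower (34.9%), with different sites side by side at PHO85. PHO4 on one side and PHO84 on the other therefore kept their order on all 3 scales, and PHO4 was chosen for it. For PHO80 the pileup of K215/216A replicate 1 and that of WT replicate 2 were both 2.47, so its place on that scale rests on a gap smaller than the rounding.

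Between K215/216R and WT, 1 of 8 members (PHO80) was higher in both K215/216R libraries, against 13.4% of 3412 genes, and 4 (PHO4, PHO81, PHO89 and SPL2) were lower, against 19.6%. The median difference was −0.113 over the 8 members and −0.0369 over all 3412 genes. Over the library median, PHO80 was higher (18.6% of genes) and PHO89 and SPL2 were lower (13.5%). As pileup over the genome background, PHO80, PHO85 and PHO89 were higher (14.4%) and PHO81, PHO84 and SPL2 were lower (22.1%). The PHO89 values here set distal peaks of K215/216R against promoter peaks of WT. At the distal PHO89 peak itself the pileup was lower in both K215/216R libraries than in both WT libraries. PHO80 above WT and SPL2 below it were the orders found on all 3 scales. For SPL2 the pileup of K215/216R replicate 2, at 2.44, was barely below that of WT replicate 1, at 2.45.

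Between the mutants, 2 of 8 members (PHO4 and PHO81) were higher in both K215/216A than in both K215/216R libraries, against 13.0% of 3844 genes, and 2 (PHO84 and PHO85) were lower, against 32.3%. The median difference was 0.0766 over the 8 members and −0.0715 over all 3844 genes. Over the library median, PHO4, PHO8 and PHO81 were higher (22.2% of genes) and PHO84 and PHO85 were lower (21.4%). As pileup over the genome background, PHO4, PHO81 and SPL2 were higher (13.6%) and PHO84, PHO85 and PHO89 were lower (28.9%). The comparisons with WT share the WT libraries, and those of K215/216A share its libraries, so they are not independent of each other.

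The other genes of the pathway were a list of 24, all found in the annotation, and chosen from general knowledge with PHM7 known to differ here. In both K215/216A libraries 22 had a peak in the window (75.1% of all genes), in K215/216R 21 did (68.8%) and in WT 19 did (62.1%). Promoter summits in both libraries were found for 5 of the 24 in K215/216A (23.8% of all genes), 6 in K215/216R (17.6%) and 4 in WT (15.0%). PHM8 had no peak in any library, and PHO87, a low-affinity phosphate transporter gene, had one in both K215/216A and both K215/216R libraries but in neither WT library. Of 19 genes with a peak in all K215/216A and WT libraries, none had a best fold higher in both K215/216A libraries and 8 had a lower one, beside 11.6% and 38.2% of all genes.

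PHM7, a phosphate-regulated membrane protein gene of uncertain function, had the largest folds of the list in K215/216R and WT. Its promoter peak had a fold of 1.82 and 1.99 in K215/216A, 3.10 and 2.84 in K215/216R, and 2.83 and 2.62 in WT. By fold K215/216A was lowest and K215/216R highest, with no overlap, and the mean folds were 1.90 ± 0.12 in K215/216A, 2.97 ± 0.18 in K215/216R and 2.72 ± 0.15 in WT (SD, n = 2 each). The pileup over the genome background was 3.4 and 3.64 in K215/216A, 3.83 and 3.91 in K215/216R, and 4.10 and 3.33 in WT, so on that scale WT spanned both mutants.

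PHO90, which encodes a low-affinity phosphate transporter, had its promoter summit on the same base in all 6 libraries, with a fold of 1.86 and 1.80 in K215/216A, 2.01 and 2.11 in K215/216R, and 2.59 and 2.29 in WT. By fold the groups did not overlap and WT was highest, but over the library median K215/216A, at 1.30 and 1.24, overlapped K215/216R, at 1.28 and 1.44. PHM6 had promoter peaks of 1.81 and 1.88 in K215/216R and of 1.98 and 1.66 in WT, and no promoter summit in K215/216A. In K215/216A a peak covered that site in both libraries, with a fold of 1.66 and 1.69, but its summit lay 812 and 806 bp upstream.

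VTC2, VTC3 and VTC4 encode subunits of the vacuolar polyphosphate synthase. VTC3 had a fold of 1.27 and 1.45 in K215/216A, 1.71 and 1.50 in K215/216R, and 1.74 and 1.51 in WT, lowest in K215/216A. VTC2 had 1.78 and 1.63 in K215/216A, 1.74 and 1.63 in K215/216R and 1.62 in 1 WT library. VTC4 had 1.90 and 1.70 in K215/216A, 1.70 and 1.90 in K215/216R and 1.97 in 1 WT library, and at neither gene were the strains apart. Of the 3 listed genes with a promoter summit in all 6 libraries, PHM7, PHO90 and VTC3, all had a lower fold in both K215/216A libraries than in the other 4, as 22.3% of the 570 genes did. Over the library median PHM7 and VTC3 did (11.6%), and as pileup over the genome background PHO90 and VTC3 did (22.3%).

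**Figure D5:**
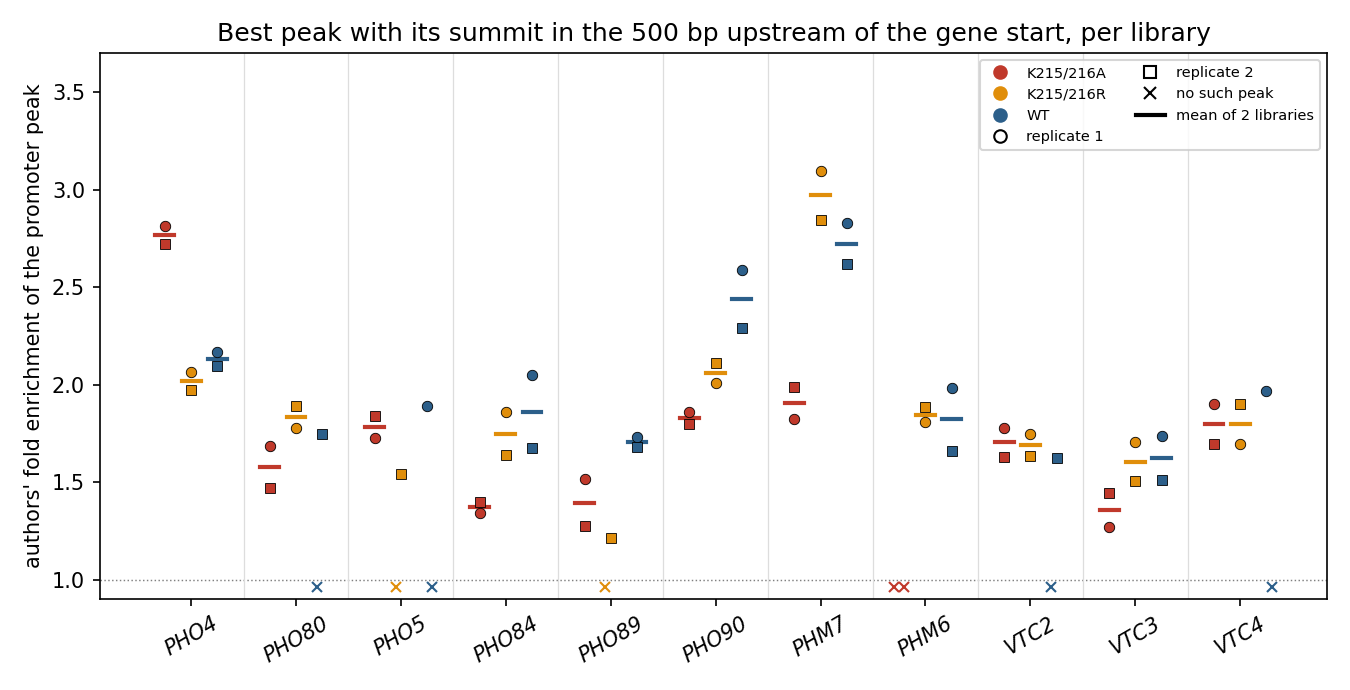
The fold of the best promoter peak (y axis, the authors' ratio) is plotted for members and other pathway genes (x axis), with K215/216A, K215/216R and WT side by side, circles and squares for replicates 1 and 2, bars for means of 2 libraries and crosses for libraries with no promoter summit. PHO4 has its own highest folds in K215/216A, at 2.81 and 2.72, and PHM7 has its own lowest folds in that strain, at 1.82 and 1.99.

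The genes whose promoter folds were most like those of PHO4 were found by the Euclidean distance of log2 fold over the library median across the 6 libraries, among 568 genes with a promoter summit in all of them that share no peak with PHO4. The 5 nearest were RNR2 (0.34), HOG1 (0.34), STE20 (0.42), PDR1 (0.47) and HEM12 (0.49), where the value is that distance in log2 units. None is a gene of the phosphate pathway list.

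HOG1, the osmotic stress kinase gene, had a fold of 2.97 and 2.64 in K215/216A, 2.26 and 2.41 in K215/216R, and 2.31 and 2.03 in WT. RNR2, which encodes a ribonucleotide reductase subunit, had 2.40 and 2.53 in K215/216A, 2.00 and 2.24 in K215/216R, and 2.08 and 1.92 in WT. At both genes the K215/216A libraries were above the other 4, and K215/216R overlapped WT. STE20 averaged 2.44 ± 0.089 in K215/216A, 2.1 ± 0.029 in K215/216R and 2.45 ± 0.37 in WT, with SD over 2 libraries each. PDR1 averaged 2.28 ± 0.013 in K215/216A, 2.08 ± 0.17 in K215/216R and 2.03 ± 0.16 in WT, and HEM12 averaged 2.37 ± 0.098 in K215/216A, 2.36 ± 0.19 in K215/216R and 2.04 ± 0.24 in WT (SD, n = 2 each). At PDR1 too the K215/216A libraries, at 2.27 and 2.29, were above the other 4. There K215/216R, at 1.96 and 2.20, overlapped WT, at 1.92 and 2.14. The gap between the mean K215/216A and K215/216R folds was wider at PHO4 than at any of these 5 genes. PHO4 was chosen for its fold in these libraries, and the 5 genes for their likeness to it. Both the gap and the order shared with HOG1, RNR2 and PDR1 therefore follow in part from that choice.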

How the data were processed

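The data are peak lists from Cse4 immunoprecipitations of 3 strains, 2 libraries each. Per the submitters' processing notes, Bowtie 1.0.0, MACS2 2.1.1.20160226, bedtools 2.25.0 and the sacCer3 build were used. The control used in calling, the filters and the read depth are not given in the sources used here. The deposited lists, called per library, give a fold (a ratio of pileup to local background), a −log10 p and a −log10 q at the summit, a score equal to 10 times the −log10 q, and the distance from peak start to summit. The lowest −log10 q was 1.30 in each list, a q of 0.05. The authors also deposited 1 joined list per strain with the mean fold ratio of the joined peaks.

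Python 3.11.15 with pandas 2.3.3, NumPy 2.4.6 and SciPy 1.17.1 was used, and matplotlib 3.10.9 drew the figures. Genes came from the RefSeq R64 annotation (the sacCer3 assembly), with strand read from the systematic name. Of the gene lengths, 96.4% are multiples of 3, so a gene start is a coding start. A strain was called when both of its libraries were. The fold and the p of a peak together fix its pileup and its local background when p is a Poisson probability, and both were computed so. Pileups came out whole, within 0.05, for 99.5% to 99.8% of the peaks in a list. As genome background served the smallest local background in the list. If no control was used in calling, that background comes from the immunoprecipitated reads themselves. These steps were tested on simulated data.

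The rule for named genes took all members, pathway genes with a promoter summit in both libraries of a strain, genes sharing a summit with a member, and the 5 genes most like PHO4. TRM44, by that rule, shared the WT replicate 2 summit of PHO85. Members and lists were chosen with earlier results of these data known. Alternatives were other windows, a stricter q, lists of equal length, other scales and leaving out each library. The pileup scale for all members, and the other scales and left-out libraries for members other than PHO4, were added after the data were seen.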

Additional observations from a re-analysis of the deposited data

How the results depend on the processing

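Each strain had 2 libraries, 1 WT library was shallow, and the cause of each change below was not tested. With the gene body alone, members with a peak numbered 6 in K215/216A, 5 in K215/216R and 5 in WT, and the 24 listed pathway genes 13, 11 and 9, where 43.3%, 37.3% and 33.1% of all genes had one. At a −log10 q of at least 10, members numbered 5 in K215/216R and 4 in WT, and pathway genes 14 in K215/216A, 10 in K215/216R and 8 in WT, where 32.1%, 26.5% and 18.4% of all genes had one in these strains. Members with a promoter summit numbered 2 in K215/216A at that q (8.20% of all genes), 3 in K215/216A with lists of equal length (15.8%), and with 1000 bp upstream 5 in K215/216R (33.8%) and 5 in WT (29.2%). Called from 1 library, they numbered 5 to 8 in K215/216A (8 without replicate 2), 3 to 6 in K215/216R (6 without replicate 1) and 4 to 5 in WT (5 without replicate 1). Other counts of calls stayed within 1.5 times.

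The PHO4 difference for K215/216A minus WT was 0.562 over the library median, 0.487 over the median of lists of equal length and 0.506 as pileup over the genome background. For K215/216A minus K215/216R these were 0.589, 0.532 and 0.413. For K215/216R minus WT they were −0.0273, −0.0450 and 0.0927, so this small difference changed sign. Leaving out single libraries gave 0.592 to 0.682, 0.704 to 0.795, and −0.158 to −0.0666 for the 3 differences. Other signs turned among differences whose groups did not overlap by fold. These were PHO5 in K215/216A minus WT over the library median (0.0247) and PHO8 in K215/216A minus WT as pileup (−0.0804). PHO89 in K215/216R minus WT also turned as pileup (0.378), where distal peaks of K215/216R stand against promoter peaks of WT. Differences with overlapping groups changed sign too, among them PHO80 (−0.165) and PHO89 (−0.628) in K215/216A minus K215/216R as pileup. The PHO89 value sets promoter peaks of K215/216A against distal peaks of K215/216R. Nothing in the labels says that a replicate number pairs libraries of different strains. Taking the difference within replicate numbers, as a replicate block, leaves the PHO4 values at 0.637, −0.112 and 0.749 for K215/216A minus WT, K215/216R minus WT and K215/216A minus K215/216R.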

Other observations

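The listed phosphatase genes PHO11 and PHO12 had no promoter summit in any library, and their recurrent peaks lay past their ends. At PHO12 the summit stood on base 553823 of chromosome VIII, 321 bp past the gene end, in all 6 libraries. Its fold was 1.85 and 1.70 in K215/216A, 1.80 and 1.92 in K215/216R, and 1.90 and 1.75 in WT, with overlapping groups. The peak past PHO11 had a fold of 1.61 and 1.61 in K215/216A, 1.77 and 1.61 in K215/216R, and 1.68 and 1.68 in WT. Both genes have close sequence copies, and how the reads of copies were assigned is not given in the sources used here.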
